A study of Mus musculus with 21 samples.

Results

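The mouse mitochondrial genome holds 22 tRNA genes, and 8 of them lie on the plus strand downstream of mt-Co1, the gene for cytochrome c oxidase subunit 1. These 8 were taken by position: the tRNAs for aspartate (mt-Td), lysine (mt-Tk), glycine (mt-Tg), arginine (mt-Tr) and histidine (mt-Th), the serine tRNA with anticodon GCT (mt-Ts2, Ser2), the leucine tRNA with anticodon TAG (mt-Tl2, Leu2) and the threonine tRNA (mt-Tt). They are 8 of 209 tRNA rows measured in cerebrum and of 208 measured in cerebellum, and all 8 passed the filter on low counts in both tissues. The rule uses position and no measured value, and it was set with earlier results of these data known. The other 14 mitochondrial tRNAs, 6 on the plus strand upstream of mt-Co1 and 8 on the minus strand, served as their comparison.

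The series compared C57BL/6J mice carrying a Polr3a mutation, switched on by recombination with tamoxifen on postnatal day 28, with wildtype mice that were given tamoxifen too, and both brain regions were frozen on postnatal day 42. The Polr3a protein is the largest part of RNA polymerase III, which transcribes nuclear tRNA genes. There were 21 QuantM-tRNA-seq libraries, in which adapters are ligated to tRNA and the copies sequenced: 4 mutant and 6 wildtype from cerebrum, and 5 mutant and 6 wildtype from cerebellum. The labels name neither the recombinase, the promoter that drives it nor the changed residue, and they do not say whether libraries of a group came from separate mice, so a p-value measures the spread between libraries, which may be technical. A tRNA library measures neither Polr3a nor any mRNA that marks a cell type, so neither genotype nor tissue label was tested in it.

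RNA polymerase III takes no part in making mitochondrial tRNAs. The mitochondrial RNA polymerase copies both strands of the circular genome into long transcripts in which tRNAs stand between the coding regions. RNase P cuts each tRNA free at its 5′ end and ELAC2 at its 3′ end, which also releases the neighbouring mRNAs, and TRNT1 then adds the CCA tail. The mature tRNAs serve only the mitochondrial ribosome, which makes subunits of the respiratory chain and of ATP synthase.

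The sequences of the 8 genes are shown because the members differ in the codons they read and are otherwise short, AT-rich and closely packed. They are the sense strand of the GENCODE M21 transcripts (mm10), without the added CCA, and capitals mark the anticodon.
Asp: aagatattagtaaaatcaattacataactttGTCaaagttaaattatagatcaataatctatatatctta
Lys: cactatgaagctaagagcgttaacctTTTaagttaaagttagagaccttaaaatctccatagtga
Gly: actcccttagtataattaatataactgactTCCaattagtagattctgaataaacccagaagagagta
Arg: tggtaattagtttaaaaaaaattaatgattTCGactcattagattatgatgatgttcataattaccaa
His: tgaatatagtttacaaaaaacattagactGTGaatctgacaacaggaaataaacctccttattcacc
Ser2: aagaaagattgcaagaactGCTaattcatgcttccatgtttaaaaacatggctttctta
Leu2: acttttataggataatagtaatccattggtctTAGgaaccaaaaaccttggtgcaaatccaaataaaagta
Thr: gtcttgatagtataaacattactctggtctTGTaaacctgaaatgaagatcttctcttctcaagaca

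In genome order the members occupy chrM:6942-7011 (Asp), chrM:7700-7764 (Lys), chrM:9391-9458 (Gly), chrM:9808-9875 (Arg), chrM:11546-11612 (His), chrM:11613-11671 (Ser2), chrM:11671-11741 (Leu2) and chrM:15289-15355 (Thr), each a single-exon tRNA gene with no intron or UTR. Asp lies 1 base before mt-Co2, and Lys lies between mt-Co2 and mt-Atp8. Gly joins mt-Co3 to mt-Nd3 with 0 bases on either side, and Arg lies 1 base from both mt-Nd3 and mt-Nd4l. His, Ser2 and Leu2 form an unbroken run between mt-Nd4 and mt-Nd5: His and Ser2 have 0 bases between them, and Ser2 and Leu2 share 1 base. Thr directly follows mt-Cytb and abuts the minus-strand gene of the proline tRNA.

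The members are 59 to 71 bases long. Ser2, the shortest at 59 bases, belongs to the serine tRNAs of animal mitochondria that lack the D arm. The GC content of the members ranged from 17.1% in Asp and 22.1% in Arg to 34.3% in Thr, with a median of 31.2%. The corresponding medians were 35.6% for the minus-strand tRNAs and 39.7% for the upstream plus-strand tRNAs. None of the 8 whole sequences occurred in any of 141767 other GENCODE transcripts. Nuclear copies of mitochondrial DNA that are not annotated as transcripts were not searched here.

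Counts behind the members were deep: the 8 together held 71661 to 431524 counts per library, from libraries with 1612750 to 7588900 tRNA counts in all. In cerebellum the depth was tied to genotype. Mutant libraries 2, 3, 4 and 5 and wildtype library 5 had over 3000000 counts, and mutant library 1 and the other 5 wildtype libraries had fewer. Values within each depth class are given beside the cerebellum genotype results. All cerebrum libraries had over 3000000 counts, so among wildtype libraries depth was nearly tied to tissue as well.

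In cerebrum, 7 of the 8 members were higher in the mutant and none was lower. The rise was between 0.41 and 0.51 on the log2 scale, and only His did not pass. The members' median log2 fold change (mutant over wildtype) was 0.45, against −0.03 over all 208 tRNAs tested. Of all tRNAs tested, 19.7% passed, 8.17% as higher and 11.5% as lower. Here and below, a member passed when its p-value from edgeR's quasi-likelihood F test, adjusted by Benjamini-Hochberg over all tRNAs tested, was under 0.05. Levels are given as CPM, counts scaled to a common library size, after TMM scaling of each tissue, which sets the bulk of tRNAs equal between libraries. In bulk tissue, a change in the mix of cells and a change in tRNA per cell cannot be told apart.

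Ser2 (Ser2-GCT-MT), which reads the AGY serine codons, stood at 5234, 6399, 6003 and 6098 CPM in cerebrum mutants 1 to 4. The 6 wildtype libraries ran from 3796 to 4371 CPM with a median of 4199. The lowest mutant library lay above the highest wildtype library, and the log2 fold change was 0.51 ± 0.10 (SE, n = 4 and 6, edgeR adjusted p = 0.00101).

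Leu2 (Leu2-TAG-MT), which reads the CUN leucine codons and directly follows Ser2, was at 5025, 5584, 5950 and 5156 CPM in the mutants. Wildtype libraries had 2982 to 4266 CPM, median 3958. The groups did not overlap, and the log2 fold change of 0.50 ± 0.12 (edgeR adjusted p = 0.00385) was close to that of Ser2. His (His-GTG-MT), the first of that contiguous run, had 2066, 2222, 2082 and 2050 CPM in the mutants against 1342 to 2630 in wildtype, with a wildtype median of 1698. Its mutant libraries were tightly grouped, but wildtype library 2, at 2630 CPM, was above all of them. The log2 fold change of His was 0.23 ± 0.15 (edgeR adjusted p = 0.31), and without wildtype library 2 it was 0.37 and passed (adjusted p = 0.0439).

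Lys (Lys-TTT-MT), the most abundant member in cerebrum, reads the AAR lysine codons. It stood at 9488, 9143, 9528 and 9937 CPM in the mutants and at 6378 to 7897 CPM in wildtype, median 6715. Every mutant library was above every wildtype library, with a log2 fold change of 0.47 ± 0.10 (edgeR adjusted p = 0.0026).

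Arg (Arg-TCG-MT), the reader of the CGN arginine codons, was at 2938, 2752, 3679 and 3415 CPM in the mutants and at 1803 to 2637 in wildtype, median 2346. Asp (Asp-GTC-MT), the reader of GAY codons and the member with the lowest GC content, was at 3472, 3018, 3545 and 3056 CPM against 2302 to 2624, median 2415. Neither tRNA overlapped between genotypes. The log2 fold changes were 0.48 ± 0.13 for Arg (edgeR adjusted p = 0.0106) and 0.43 ± 0.11 for Asp (adjusted p = 0.00691).

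Gly (Gly-TCC-MT), the reader of GGN codons, stood at 4145, 4433, 5044 and 4701 CPM in the mutants and at 2839 to 3871 in wildtype, median 3392. The groups again did not overlap, and the log2 fold change was 0.42 ± 0.12 (edgeR adjusted p = 0.0122). Thr (Thr-TGT-MT), the reader of ACN codons and the last plus-strand tRNA before the control region, was at 4430, 5859, 5789 and 5910 CPM in the mutants and at 3189 to 4744 in wildtype, median 4113. Mutant library 1 lay within the wildtype range while the other 3 mutants lay above it. The log2 fold change of Thr was 0.41 ± 0.13 (edgeR adjusted p = 0.0266), and this call was lost without mutant library 2, 3 or 4 (adjusted p of 0.0737, 0.0693 and 0.0872).

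**Figure D1:**
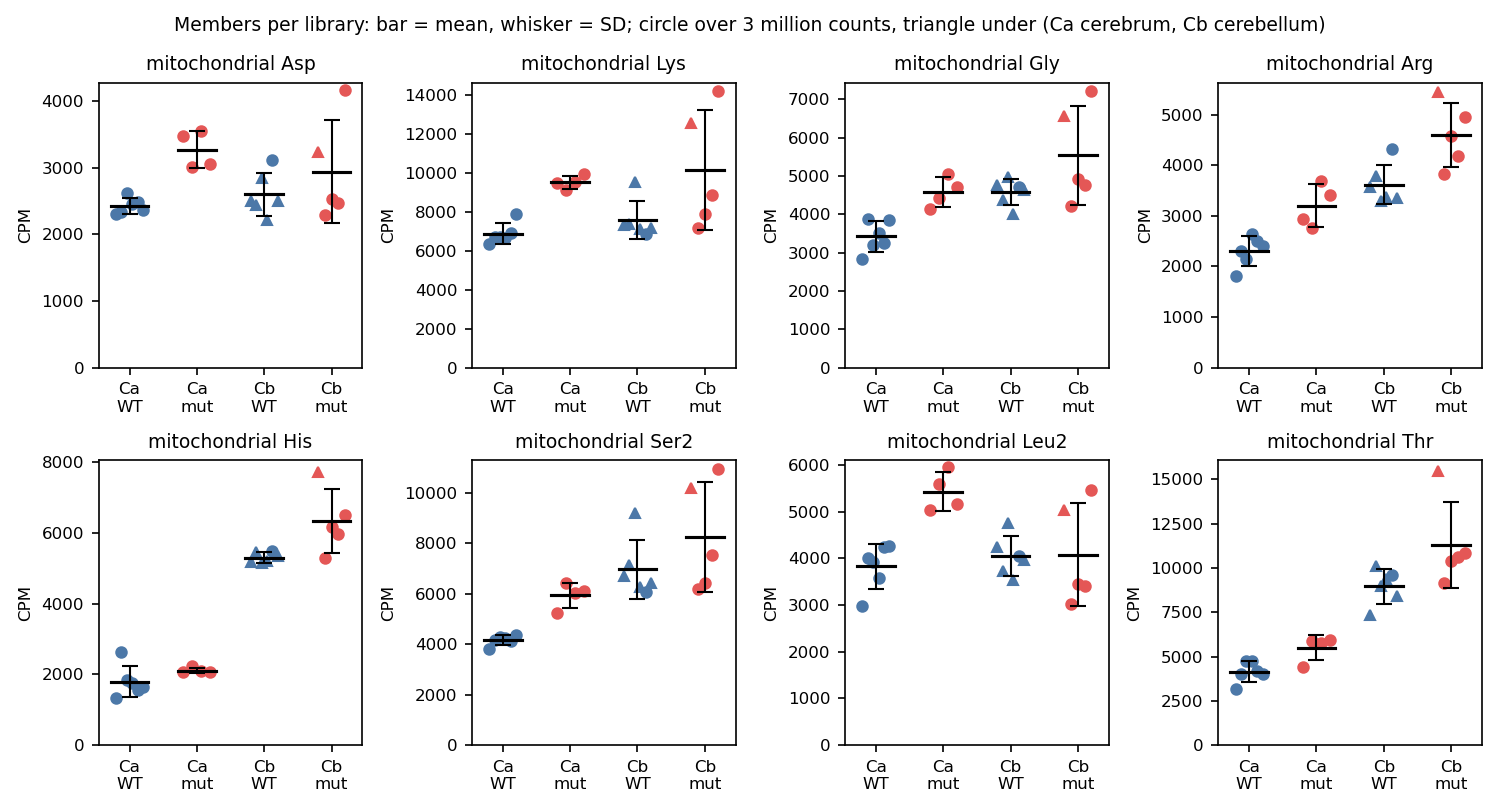
Level of each of the 8 tRNAs in every library, in CPM (y axis, from 0) with each tissue scaled on its own, by tissue and genotype (x axis). Points are libraries, the bar is the mean and the whisker the SD. In cerebrum (Ca), mutant points lie above all wildtype points in 6 of the 8 panels, all but His and Thr; in cerebellum (Cb) the genotypes overlap in all 8.

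Counting libraries instead of fits, 6 of the 8 members had all mutants above all wildtypes in cerebrum. Over all tRNAs tested this held for 5.77%.

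The other mitochondrial tRNAs moved in the same direction in cerebrum. Of the 6 upstream plus-strand tRNAs, 3 passed as higher and none as lower, with a median log2 fold change of 0.40 and a range from −0.02 to 0.59. Of the 8 minus-strand tRNAs, 5 passed as higher and none as lower, with a median of 0.41 and a range from 0.06 to 0.56. Nuclear tRNAs, whose gene products are made by RNA polymerase III, had a median of −0.07, with 2 passing as higher and 24 as lower of 186.

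**Figure D2:**
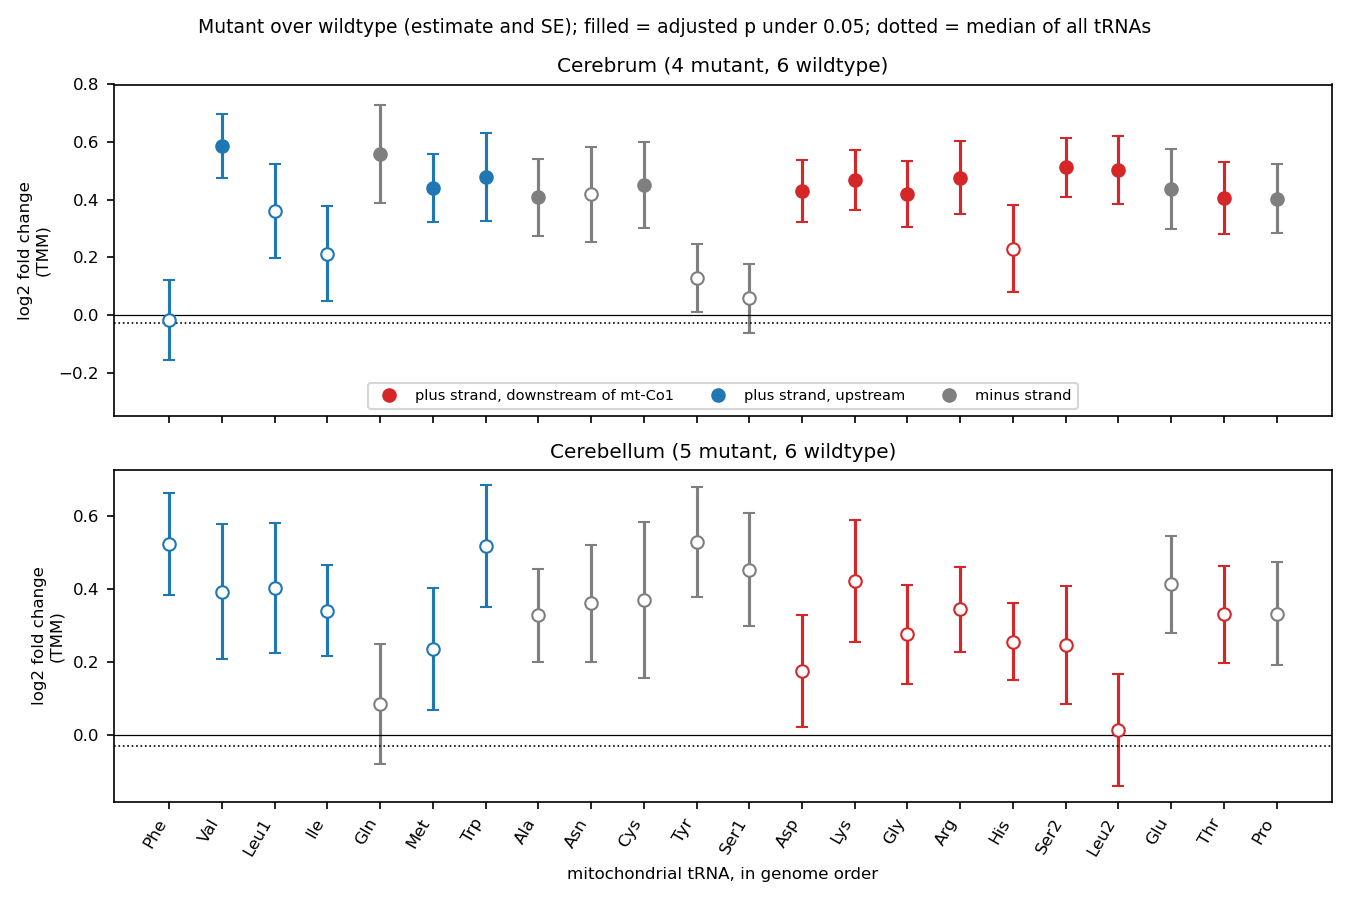
Log2 fold change (mutant over wildtype, TMM scaling) with its SE for all 22 mitochondrial tRNAs in genome order, in cerebrum (top) and cerebellum (bottom). Filled points have an adjusted p under 0.05 and the dotted line is the median of all tRNAs tested; 7 of the 8 red members are filled in cerebrum and none in cerebellum, where Leu2 sits at 0.01.

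To test the members against the rest of the mitochondrial set, each library was scaled to its summed count over the other 14 mitochondrial tRNAs. On this scale none of the 8 members differed between genotypes in cerebrum: 0 passed, and 0 had an unadjusted p under 0.05 in edgeR. Over all tRNAs tested on that scale, 46.6% passed, all as lower, and 57.7% had an unadjusted p under 0.05. The estimates were 0.15 ± 0.13 for Ser2, 0.14 ± 0.14 for Leu2, 0.11 ± 0.15 for Arg, 0.10 ± 0.12 for Lys and 0.06 ± 0.14 each for Asp and Gly. Thr was at 0.04 ± 0.15 and His at −0.14 ± 0.17. The members together made up 27.3 ± 2.41% of mitochondrial tRNA counts in the mutant (SD, n = 4) and 26.2 ± 1.999% in wildtype (n = 6), a difference smaller than the SD. As a share of all tRNA counts they made up 3.93 ± 0.659% against 2.94 ± 0.312%.

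The rise in cerebrum is one relative to the bulk of tRNAs, and its size depended on what the libraries were scaled to. With scaling to the summed mitochondrial counts the median of all tRNAs moved to −0.41, with scaling to the spike-in, a bacterial tRNA, to −0.36, and no member passed on either scale. The calls over all tRNAs, 17 higher and 24 lower with TMM, became 0 higher and 111 lower with mitochondrial counts, 0 and 74 with the spike-in, and 6 and 25 with library totals. On the spike-in scale the members' median was 0.11, with His at −0.09, and on the mitochondrial scale His was at −0.16. With library totals 3 members passed, while Asp, Gly, Arg and Thr, at 0.39, 0.39, 0.45 and 0.38, did not (adjusted p from 0.0534 to 0.119). A change of scaling moves all tRNAs of a library together, so the distance from the median tRNA to the median member, 0.47 to 0.48 under 5 scalings, is held nearly fixed by construction. Relative to the spike-in the summed members differed by 0.10 on the log2 scale, against an SD between libraries of 0.30 in mutant and 0.19 in wildtype. How much spike-in went into each library was not known here.

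**Figure D3:**
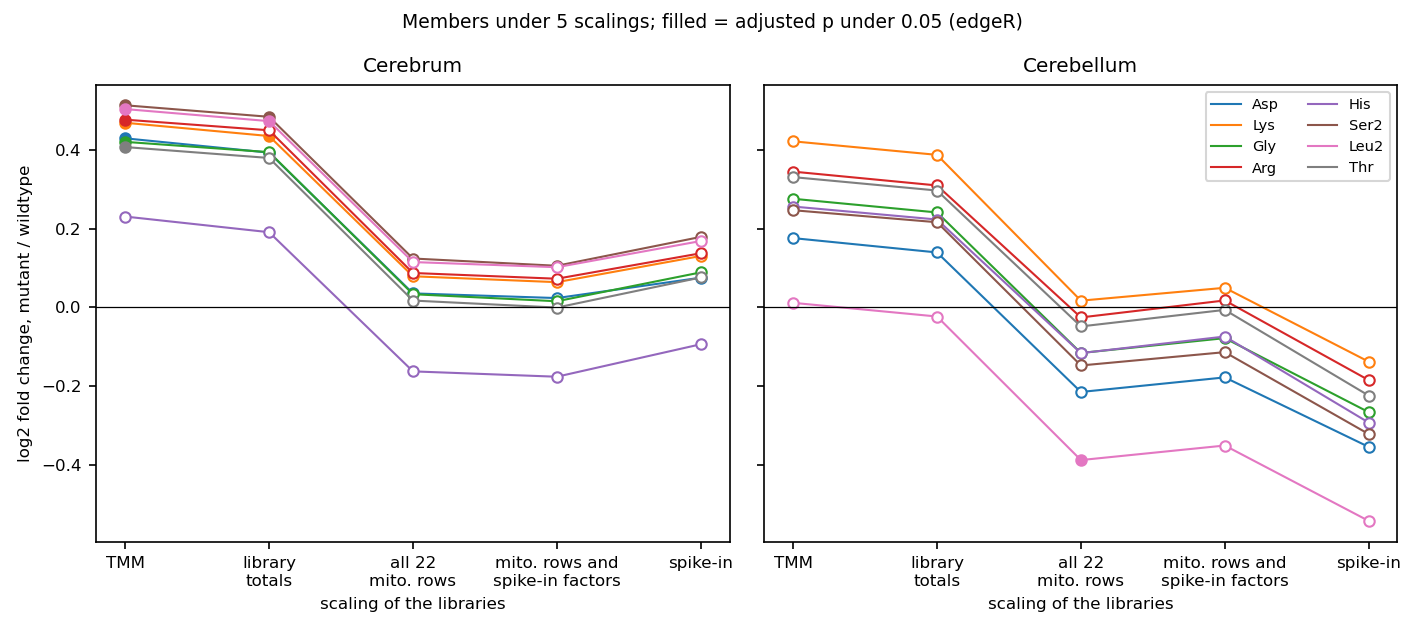
Log2 fold change (mutant over wildtype, y axis) of each member under 5 ways of scaling the libraries (x axis), in cerebrum (left) and cerebellum (right); filled points have an adjusted p under 0.05 in edgeR. The 8 lines shift together: in cerebrum 7 members pass with TMM, 3 with library totals and none with the other 3 scalings, and in cerebellum only Leu2 passes, as lower, with scaling to all 22 mitochondrial rows.

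In cerebellum no member passed, and all 8 estimates lay above 0. Their median log2 fold change was 0.27, against −0.03 over all 202 tRNAs tested. Passing was rare in this tissue, with 2.48% of all tRNAs tested, 0.495% as higher and 1.98% as lower, and in 0.99% were all mutants above all wildtypes. An unadjusted p under 0.05 in edgeR was found for 4 of the 8 members, against 19.8% of all tRNAs tested, 5 of the 6 upstream plus-strand tRNAs and 6 of the 8 minus-strand tRNAs. DESeq2, which called 11.8% of all tRNAs, called 2 members, Arg (0.38, adjusted p = 0.0224) and His (0.29, adjusted p = 0.0489).

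Lys had the largest estimate of the members, 0.42 ± 0.17 (SE, n = 5 and 6, edgeR adjusted p = 0.17), from 12567, 7170, 7916, 8858 and 14229 CPM in cerebellum mutants 1 to 5. The wildtype libraries ran from 6877 to 9546 CPM, median 7266. Mutants 1 and 5 were above all wildtype libraries and the other 3 were within the wildtype range. Arg stood at 5441, 3824, 4585, 4178 and 4943 CPM in the mutants and at 3299 to 4320 in wildtype, median 3470, an estimate of 0.34 ± 0.12 (adjusted p = 0.1002). All 5 Arg mutant values exceeded the wildtype median.

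Thr was at 15472, 9136, 10368, 10629 and 10835 CPM in the mutants and 7318 to 10136 in wildtype, median 9193. Mutant library 1 stood far above the rest, and 4 of the 5 mutants exceeded the highest wildtype library. The estimate for Thr was 0.33 ± 0.13 (edgeR adjusted p = 0.177). For His the mutants had 7730, 5292, 6166, 5957 and 6500 CPM, and the wildtype libraries lay closely together at 5145 to 5492, median 5280. Again 4 of 5 mutants were above every wildtype library, with an estimate of 0.26 ± 0.11 (adjusted p = 0.177).

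Leu2 stood apart from the other members. It was at 5043, 3025, 3452, 3402 and 5471 CPM in the mutants and at 3537 to 4756 in wildtype, median 4005. Mutants 2, 3 and 4 lay below all wildtype libraries and mutants 1 and 5 above all of them, so the estimate was 0.01 ± 0.15 (edgeR adjusted p = 0.97). The remaining estimates were 0.28 ± 0.14 for Gly, 0.25 ± 0.16 for Ser2 and 0.18 ± 0.15 for Asp, with overlapping groups and adjusted p of 0.261, 0.451 and 0.607.

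Mutants 1 and 5 gave the highest 2 mutant values for all 8 members. Mitochondrial tRNAs as a whole made up 21.2% and 19.3% of tRNA counts in these 2 libraries, against 13.96% to 16.4% in the other 3 mutants and 12.5% to 14.4% in wildtype. Without both libraries, a choice made after the values were seen, Leu2 was at −0.25, Asp at −0.06 and Ser2 at −0.01, and still no member passed. Within the shallow libraries (1 mutant, 5 wildtype) all 8 differences in mean log2 CPM were above 0, with a median of 0.55. Within the deep libraries (4 mutants, 1 wildtype) 6 of 8 were above 0, with a median of 0.11.

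Relative to the other 14 mitochondrial tRNAs, the members in cerebellum were all below 0, with a median of −0.16. Most of the 14 were below 0 as well. Above 0 were 2 of the 6 upstream and 2 of the 8 minus-strand tRNAs, with medians of −0.05 and −0.09. The median of all tRNAs tested was −0.42. Leu2 was the only member that fell. On this scale 31.7% of all tRNAs tested passed, all as lower. Leu2 made up 2.28%, 2.05%, 2.51%, 2.12% and 2.68% of mitochondrial tRNA counts in mutants 1 to 5, and from 2.60% to 3.39% in wildtype, median 3.11%. Only mutant 5 reached the wildtype range, and the log2 difference was −0.43 ± 0.15 (edgeR adjusted p = 0.0307). This call was lost without mutant library 1, 2 or 4 or wildtype library 1, 4, 5 or 6, with depth class as a covariate, and with scaling to the minus-strand tRNAs alone or by the median of ratios over the 14. The estimate changed little in these fits, from −0.45 to −0.38, with adjusted p from 0.0555 to 0.0836. The call remained without mutants 1 and 5.

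The other 7 members did not pass against the 14. Their estimates ran from −0.26 ± 0.16 for Asp and −0.19 ± 0.13 for Ser2 through −0.16 ± 0.14 for both His and Gly, −0.09 ± 0.14 for Thr and −0.07 ± 0.15 for Arg to −0.03 ± 0.14 for Lys. The summed members made up 30.6 ± 2.16% of mitochondrial counts in the mutant (SD, n = 5) and 32.8 ± 0.969% in wildtype (n = 6). Within both the shallow and the deep libraries, 1 of 8 differences relative to the 14 was above 0, with medians of −0.25 and −0.22.

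The scaling moved the cerebellum estimates across 0. The median of all tRNAs went from −0.03 with TMM to −0.37 with summed mitochondrial counts and −0.59 with the spike-in, and the members' median went to −0.12 and −0.28. Calls over all tRNAs went from 1 higher and 4 lower to 0 and 53 with mitochondrial counts and 0 and 83 with the spike-in.

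The authors' deposited tables of fold changes give values close to 0 for most members. Their mean levels are returned to within 5.34e-05% by size factors computed over the 22 mitochondrial rows and the spike-in, so the members themselves belong to the set that the deposited values are scaled to. In cerebrum the authors' deposited anticodon table gives log2 fold changes from 0.02 to 0.11 for Gly, Asp, Lys, Arg, Leu2 and Ser2, −0.00038 for Thr and −0.18 for His. Signs in the authors' deposited isodecoder table for cerebrum are the opposite for all 8, so that table reads wildtype over mutant. For cerebellum the authors' deposited isodecoder table lists Leu2 at −0.35 with an adjusted p of 0.0278, and the authors' deposited anticodon table lists it with an adjusted p of 0.00231. No other member is under 0.05 in the authors' deposited tables.

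Whether the genotype difference itself differed between tissues was tested in 1 fit of all 21 libraries over the 204 tRNAs found in both tables. No member passed, and 4.9% of all tRNAs tested did. Leu2 had the largest difference, −0.50 ± 0.21 (cerebellum minus cerebrum, edgeR adjusted p = 0.205), and was the only member with an unadjusted p under 0.05, as 14.7% of all tRNAs tested had. It passed without cerebellum mutant 5 (−0.62, adjusted p = 0.0419). The estimates for Ser2 and Asp were −0.28 ± 0.20 and −0.27 ± 0.20, those for Gly, Arg, Thr and Lys lay between −0.16 and −0.07, and that for His was 0.01 ± 0.20.

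The nuclear tRNAs that carry the members' anticodons were summed by anticodon and tested beside them. In cerebrum 0 of the 8 nuclear totals passed, among 72 anticodon totals of which 11.1% passed. In cerebellum 0 of 8 passed, among 71 of which 0% passed. Fewer members passed in this cerebrum fit than in the fit of single tRNAs. Ser2, Lys and Leu2 passed (edgeR adjusted p from 0.0122 to 0.021). Arg, Gly, Asp, Thr and His did not, at 0.40, 0.34, 0.35, 0.33 and 0.15 (adjusted p from 0.0736 to 0.689). Leu2 was at −0.06 ± 0.14 in the cerebellum fit. In cerebrum nuclear Arg-TCG was at −0.22 ± 0.13 (edgeR adjusted p = 0.271), and nuclear Ser-GCT and Leu-TAG were at −0.04 ± 0.13 and 0.06 ± 0.13. Nuclear His-GTG and Lys-TTT were at −0.10 and −0.07, and Thr-TGT, Gly-TCC and Asp-GTC at 0.07, 0.12 and 0.14. In cerebellum the 8 nuclear totals ran from −0.18 for Arg-TCG to 0.06 for Leu-TAG. The mitochondrial Arg count was 4.79 ± 0.778% of the nuclear Arg-TCG count in wildtype cerebrum and 7.55 ± 2.31% in mutant cerebrum. The lowest mutant ratio, 5.71%, lay next to the highest wildtype ratio, 5.70%. The Leu2 count was 130.4% to 148.7% of the nuclear Leu-TAG count in mutant cerebrum and 93.8% to 124.5% in wildtype cerebrum. The ratios of the other members overlapped between genotypes in cerebrum, and those of all members, Arg and Leu2 included, overlapped in cerebellum. Such ratios were not taken for the other mitochondrial tRNAs, so whether the separation of Arg and Leu2 is particular to them was not tested.

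Between the tissues of wildtype mice the 8 estimates were spread widely, from −0.23 to 1.26. Of the 8, 4 were higher in cerebellum, His, Thr, Ser2 and Arg, and none was lower, with TMM scaling of both tissues together. Depth was nearly tied to tissue in these libraries, and its part in the tissue differences was not tested. Most tRNAs differed between these tissues: 71.1% of all tRNAs tested passed, 33.3% as higher and 37.7% as lower. The median log2 fold change (cerebellum over cerebrum) was 0.24 for the members and −0.05 for all tRNAs. Of the 8 minus-strand tRNAs, 3 passed as higher and 2 as lower, with a median of 0.12 and a highest value of 1.35. Of the 6 upstream plus-strand tRNAs, 1 passed as higher and 3 as lower, with a median of −0.30.

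His changed most. On the joint scale it ran from 1314 to 2892 CPM in wildtype cerebrum, median 1861, and from 4391 to 4923 CPM in wildtype cerebellum, median 4720, with no overlap. The log2 fold change was 1.26 ± 0.13 (SE, n = 6 and 6, edgeR adjusted p = 2.92e-09). In mutants, which are other libraries, His differed by 1.27 ± 0.16 (adjusted p = 6.39e-08).

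Thr ran from 3122 to 5391 CPM in wildtype cerebrum and from 6585 to 9157 in wildtype cerebellum, again with no overlap, a log2 fold change of 0.81 ± 0.13 (edgeR adjusted p = 5.26e-06). Ser2 was 0.44 ± 0.13 higher (adjusted p = 0.00312) with no overlap, and Arg 0.35 ± 0.13 higher (adjusted p = 0.0132) with overlapping groups. So 3 of the 8 members had every wildtype cerebellum library above every wildtype cerebrum library, as 24.5% of all tRNAs tested did. Gly, Lys, Asp and Leu2 did not pass, at 0.12 ± 0.12, −0.16 ± 0.13, −0.20 ± 0.13 and −0.23 ± 0.14.

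In the mutants the tissue comparison called 4 members, among 72.5% of all tRNAs tested, 35.8% higher and 36.8% lower. His and Thr (0.73 ± 0.16, adjusted p = 0.000175) were higher in cerebellum, and Leu2 (−0.73 ± 0.16, edgeR adjusted p = 0.000175) and Asp (−0.47 ± 0.15, adjusted p = 0.00512) were lower. Arg, Ser2, Gly and Lys did not pass, at 0.21, 0.16, −0.04 and −0.23, although Lys passed as lower without cerebellum mutant 5 (−0.37, adjusted p = 0.0194). With library totals Asp no longer passed (−0.16, adjusted p = 0.317), and Arg (0.51, adjusted p = 0.00595) and Ser2 (0.46, adjusted p = 0.00829) passed as higher. With scaling to the spike-in, the wildtype comparison turned: the median of all tRNAs went to −0.99, no member was higher, 5 were lower, and His was at 0.38 without passing. Calls over all tRNAs then went from 68 higher and 77 lower to 6 and 138, and with library totals they were 85 and 55.

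A share of the mitochondrial count is itself a scaling to that count, which includes the members, so the shares do not move independently. The upstream plus-strand tRNAs took 50.4 ± 2.24% of it in wildtype cerebrum and 39.6 ± 1.15% in wildtype cerebellum (mean ± SD). His took from 1.21% to 2.39% of mitochondrial tRNA counts in wildtype cerebrum, median 1.53%, and from 3.47% to 4.28% in wildtype cerebellum, median 4.13%. Thr went from 3.75 ± 0.583% to 6.75 ± 0.671% (mean ± SD, n = 6 each), and Ser2 from 3.76 ± 0.186% to 5.21 ± 0.551%. Lys took 6.21 ± 0.307% and 5.69 ± 0.486%, Asp 2.20 ± 0.160% and 1.96 ± 0.226%, and Leu2 3.46 ± 0.429% and 3.04 ± 0.283%.

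**Figure D4:**
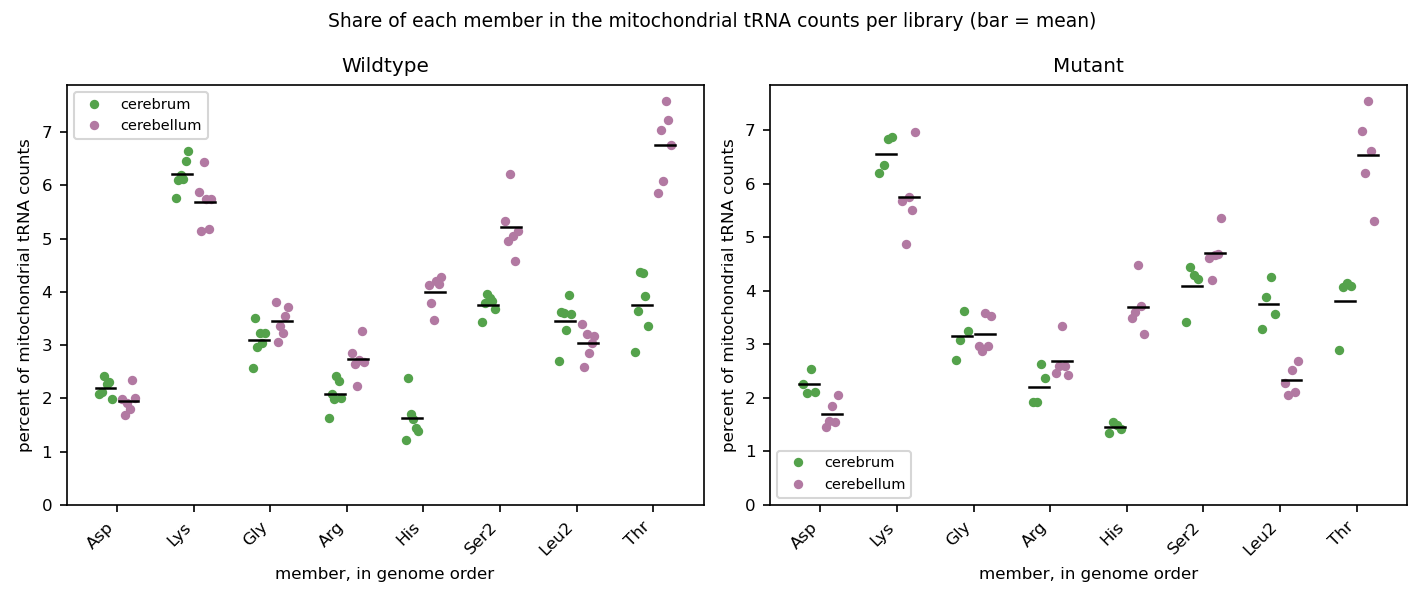
Share of each member in the mitochondrial tRNA counts of each library (y axis, percent, from 0), for cerebrum and cerebellum, in wildtype (left) and mutant (right); points are libraries and bars are means. His and Thr are separated between tissues in both genotypes, Ser2 in wildtype, and Asp and Leu2 in mutants, where Leu2 reaches 2.68% in cerebellum and starts at 3.28% in cerebrum. Separation was common: in CPM, 24.5% of all tRNAs tested had every wildtype cerebellum library above every wildtype cerebrum library. How many tRNAs separate as a share of mitochondrial counts was not computed.

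Tested against the other 14 mitochondrial tRNAs, 5 members were higher in wildtype cerebellum: His by 1.43 ± 0.15 (edgeR adjusted p = 8.17e-10), Thr by 0.98 ± 0.14 (3.26e-07), Ser2 by 0.61 ± 0.12 (4.32e-05), Arg by 0.53 ± 0.14 (0.00144) and Gly by 0.29 ± 0.13 (0.0396). The Gly call was lost without cerebrum wildtype 1, 3, 5 or 6 or cerebellum wildtype 1, 5 or 6 (adjusted p from 0.0508 to 0.106). On this scale 68.1% of all tRNAs tested passed, 39.2% as higher and 28.9% as lower. Of the 8 minus-strand tRNAs, 5 passed as higher and 2 as lower, with a median of 0.29 and a highest value of 1.52. Of the 6 upstream plus-strand tRNAs, 1 passed as higher and 2 as lower, with a median of −0.13. Lys, Asp and Leu2 lay at 0.01, −0.03 and −0.05. The choice of the reference mattered for all but the leading members: with the 8 minus-strand tRNAs alone as reference, 2 members passed as higher and 3 as lower, Lys among the lower at −0.36.

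Ratios were also taken within the contiguous run of His, Ser2 and Leu2. In wildtype cerebrum the log2 ratio of His to Ser2 counts was −1.24 ± 0.30 (SD, n = 6), and in wildtype cerebellum −0.38 ± 0.24. The ratio of Ser2 to Leu2 was 0.13 ± 0.14 in wildtype cerebrum and 0.77 ± 0.15 in wildtype cerebellum, and the 2 ranges did not overlap. In mutant cerebrum it was again 0.13, with an SD of 0.11, and in mutant cerebellum 1.02 ± 0.09 (n = 5). His to Leu2 went from −1.12 ± 0.30 in wildtype cerebrum to 0.40 ± 0.17 in wildtype cerebellum and 0.66 ± 0.25 in mutant cerebellum. These ratios come from within single libraries and carry no test.

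Set side by side per length, the order of the members changed between tissues. In CPM per kilobase on the joint scale, wildtype cerebrum had Lys first at 115908 ± 12415 (SD, n = 6), then Ser2 at 77176, Thr at 67992, Leu2 at 59267, Gly at 55168, Asp at 38023, Arg at 37079 and His last at 29378 ± 7799. Lys stood above Ser2, and Gly above Asp, by more than either SD, while the other neighbours did not differ by more than the larger SD. That SD does not use that the members share libraries. Within single wildtype cerebrum libraries Ser2 always stood above Thr. Thr stood above Leu2 in all but wildtype 6, and Arg above His in all but wildtype 2. The orders of Leu2 and Gly and of Asp and Arg varied between libraries. In wildtype cerebellum Thr was first at 119198 ± 13496, followed by Ser2 at 104631, Lys at 103516, His at 70402 ± 3043, Gly at 59829, Leu2 at 50631, Arg at 47378 and Asp last at 33064 ± 3942. There Thr did not differ from Ser2, Ser2 from Lys, or Leu2 from Arg beyond the larger SD. His stood apart both from Lys above it and from Gly below it. Gly stood above Leu2, and Arg above Asp, by more than either SD.

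In mutant cerebrum the order was that of wildtype cerebrum except that Asp and Arg, at 53876 ± 5190 and 54125 ± 7268, changed places within their spread. In mutant cerebellum Lys, at 144023 ± 41508, stood ahead of Ser2 at 129042 ± 32119, the reverse of wildtype cerebellum. Leu2, at 53051 ± 13598, stood behind Arg at 62558 ± 8824 in the next-to-last place. Each of these gaps lay within the SD between libraries, a measure that does not use that the members share libraries. Within single libraries Lys stood above Ser2 in every cerebellum mutant, and Arg above Leu2 in all but mutant 5. In wildtype cerebellum the order of either pair varied between libraries. How well each tRNA is ligated and copied in library preparation also enters such levels and was not tested.

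The tRNA whose counts most nearly kept a constant ratio to each member was found over all 21 libraries and 203 other tRNAs, by the SD of the log2 ratio. For Asp it was Leu2 (SD 0.16), and for Lys and Leu2 it was mitochondrial Met (0.15 and 0.16). Gly was nearest to mitochondrial Pro (0.18), Arg and Ser2 to Gly (0.20 and 0.19) and His to mitochondrial Ala (0.22). Thr was nearest to a nuclear isodecoder, Ala-CGC-2-1 (0.22). The median SD over all other tRNAs ranged from 0.53 for Gly to 0.87 for His. Library depth cancels in each ratio, and the SD reflects the tissue difference as well as the spread within tissues. For the sum of the 8, the nearest tRNAs outside the list were mitochondrial Pro (0.17), Ala-TGC-6-1 (0.21), mitochondrial Tyr (0.23), Gly-CCC-1 (0.24) and Gly-TCC-1 (0.25).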

How the data were processed

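QuantM-tRNA-seq libraries were made from Trizol-extracted total RNA. The submitters' processing notes list Bowtie2, cutadapt, DESeq2 and featureCounts and the mm10 build, with versions, settings and the handling of reads that match more than 1 tRNA not given in the sources. The authors deposited 1 table of raw, unnormalized counts per tissue. Per the file headers, the authors' deposited comparison tables hold log2 fold changes with their p-values before and after adjustment, a test statistic (a score) and a mean signal of counts divided by size factors. Rows were matched to 22 mitochondrial genes of GENCODE M21 by amino acid and anticodon.

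From the counts, R 4.3.3 was used to run edgeR 4.0.16 (on limma 3.58.1) with filterByExpr (minimum count of 10), TMM factors of the filtered table, robust quasi-likelihood fits and two-sided F tests, with Benjamini-Hochberg adjustment at 0.05 over all tRNAs tested. The SE is the size of the log2 fold change over the square root of F. Neither library sizes nor tests included the spike-in row. Log2 ratios of counts between tRNAs used an added count of 0.5, and log2 ratios to the spike-in had no added count. The steps were tested on simulated data. Each comparison names every member. The members were taken by genome position, but this rule, the lists and the tests were chosen with earlier results of these data known. The alternatives were other size factors, library totals, mitochondrial, spike-in and nuclear scalings, DESeq2 1.42.0, no filter, sex or depth class as covariates, the replicate number as a block, and leaving out each library. Factors over the mitochondrial rows and the spike-in, and leaving out cerebellum mutants 1 and 5, were chosen after seeing the data. Shares and ratios to the spike-in are given with their SD and no test.

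Replicates were compared first: every pair within a group differed by more than sampling noise (chi-square per degree of freedom of at least 46.2). Replicate numbers recur across groups, but the labels do not say what they mark. The correlation of same-numbered libraries' deviations from their group means was over 0.1 in 3 of 4 genotype pairs in cerebrum, 1 of 5 in cerebellum and 5 of 10 tissue pairs, so the numbers were not taken to pair libraries.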

Additional observations from a re-analysis of the deposited data

Results flagged for a closer look

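In 72 groups of 4 to 6 libraries, covering each member's level, its share of the mitochondrial counts and the members' summed shares, 10 held a highest or lowest library that stood apart from the nearest other by more than Dixon's 95% limit. Chance flags about 1 group in 20, and the values overlap since several describe 1 library.

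Cerebrum mutant 1 was low for Thr, at 4430 CPM with the next mutant at 5789, and at 2.89% of mitochondrial counts with the next at 4.07%. Cerebellum mutant 1 was high for Thr, at 15472 CPM with the next at 10835. Cerebellum mutant 3 was high for Arg as a share of mitochondrial counts, at 3.33% with the next at 2.60%.

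Among wildtype libraries, cerebellum wildtype 3 was high for Lys, at 9546 CPM against a next value of 7385, and for Ser2, at 9190.5 CPM against 7121. Cerebrum wildtype 6 was high for Lys, at 7897 CPM with the next at 6939. Cerebrum wildtype 1 had the lowest summed share of the 8 members, 22.2% of mitochondrial counts with the next at 25.9%, and 2.30% of all tRNA counts with the next at 3.02%. Cerebellum wildtype 2 had the lowest summed share of mitochondrial counts in its group, 30.9% with the next at 32.9%.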

How the results depend on the processing

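In the 3 comparisons of TMM-scaled libraries that called members, the numbers of calls stayed within 1.5 times with median-of-ratios size factors, TMM from nuclear tRNAs, DESeq2, no filter, sex as a covariate and each library left out. In cerebrum 7 calls became 3 with library totals, at estimates close to those with TMM, and 0 with mitochondrial counts, the spike-in, or mitochondrial and spike-in size factors. In cerebellum 0 became 1 (Leu2, lower) with mitochondrial counts and 2 with DESeq2. The 4 wildtype tissue calls, all higher, became 5 with the spike-in, all lower, and the 5 against the 14 other mitochondrial tRNAs became 5 of mixed direction with the minus-strand tRNAs. Between mutant tissues 2 higher and 2 lower became 0 higher and 6 lower with the spike-in. The 1 cerebellum call against the 14 (Leu2) became 0 with the minus-strand tRNAs, median of ratios or depth class. With mitochondrial counts, nuclear totals of the members' anticodons went from 0 to 3 passing in cerebrum and from 0 to 1 in cerebellum, all lower. The causes were not tested. The lowest count of any member in any library was 3933.

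The replicate number as a block changed 3 counts. For the difference between tissues 0 became 1 (Leu2, −0.66, adjusted p = 0.0149), between mutant tissues 4 became 5 (Lys, −0.40, adjusted p = 0.0114), and for cerebellum against the 14, 1 became 0 (Leu2, −0.42, adjusted p = 0.123). Under the block Leu2 in cerebellum was at −0.027 and the His difference between tissues at −0.040. Same-numbered libraries correlated best with each other in 1 of 4 pairs in cerebrum, 1 of 5 in cerebellum and 4 of 10 between tissues, a hint from the data and not from the design. The labelled sex agreed in 10 of 10 same-numbered tissue pairs, against 1 of 4 and 2 of 5 genotype pairs in cerebrum and cerebellum; the labels do not say whether such tissues came from 1 mouse.

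The following log2 values changed sign. With mitochondrial counts: in cerebrum His −0.16; in cerebellum Asp −0.21, Gly −0.12, Arg −0.025, His −0.12, Ser2 −0.15, Leu2 −0.39 and Thr −0.048; between mutant tissues Gly 0.0094. With the spike-in: in cerebrum His −0.093; in cerebellum Asp −0.35, Lys −0.14, Gly −0.27, Arg −0.18, His −0.29, Ser2 −0.32, Leu2 −0.54 and Thr −0.22; for the difference between tissues His −0.20. Also with the spike-in, between wildtype tissues Gly −0.77, Arg −0.57, Ser2 −0.43 and Thr −0.10, and between mutant tissues Arg −0.89, Ser2 −0.93 and Thr −0.40. With mitochondrial and spike-in size factors, in cerebrum His −0.18 and Thr −0.00037, and in cerebellum Asp −0.18, Gly −0.078, His −0.074, Ser2 −0.11, Leu2 −0.35 and Thr −0.0062. With library totals, in cerebellum Leu2 −0.023, between wildtype tissues Asp 0.091, Lys 0.13 and Leu2 0.066, and between mutant tissues Lys 0.081 and Gly 0.26.

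Gly between mutant tissues was 0.0023 with DESeq2 and 0.0023 with median-of-ratios factors, and with nuclear TMM the His difference between tissues was −0.024. With depth class as a covariate the differences between tissues were 0.10 for Lys and 0.038 for Thr, and Lys in cerebellum against the 14 was 0.0069. Without cerebellum mutants 1 and 5, cerebellum values were −0.056 for Asp, −0.0070 for Ser2 and −0.25 for Leu2, and Arg against the 14 was 0.016. Against other references, Lys was 0.011 (median of ratios) and 0.010 (minus-strand) in cerebellum, and between wildtype tissues Lys was −0.093 (median of ratios) and −0.36 (minus-strand), Gly −0.078 (minus-strand), and Asp 0.18 and Leu2 0.16 (upstream tRNAs).

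Leaving out each library in turn, counts ranged from 0 to 1 for the difference between tissues (1 without cerebellum mutant 5), for cerebellum against the 14 and for nuclear anticodon totals in cerebellum. Ranges that crossed 0 were, in cerebellum, Leu2 −0.10 to 0.10; between tissues, the differences of His −0.13 to 0.075 and Lys −0.21 to 0.039; and between mutant tissues Gly −0.14 to 0.044. Against the 14 they were, in cerebrum, Asp −0.024 to 0.091, Gly −0.032 to 0.14, Arg −0.0061 to 0.19, Thr −0.036 to 0.17 and His −0.23 to 0.0047; in cerebellum Lys −0.11 to 0.038; and between wildtype tissues Lys −0.030 to 0.045 and Asp −0.092 to 0.015.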
